A study of Mus musculus with 23 samples.

Results

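The cells described here are bone marrow droplets chosen for transcripts of the monocyte lineage, called the Csf1r/Ly86 gate below. A droplet barcode entered the gate when it held at least 500 detected genes, at most 10% of its unique molecular identifiers (UMIs, which count single RNA molecules) in mitochondrial genes, at least 1 UMI of Csf1r and at least 1 UMI of Ly86, F13a1 or Ms4a6c. It also had to lack Siglech, Gata1 and Cd79a, which mark plasmacytoid dendritic, erythroid and B cells, and to hold under 5% of its UMIs in the neutrophil genes S100a8 and S100a9. The gate held 1176 of the 69444 marrow barcodes kept by the gene and mitochondrial limits, out of 139967 barcodes in the 16 expression libraries of the series. The members were chosen on their measured transcripts, so the levels of these 9 genes are descriptions and carry no test.

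The marrow came from C57BL/6 mice of 2 months of age that carried wild-type (WT) Stat5b or a change of 1 tyrosine of the STAT5B protein to phenylalanine (Y665F) or histidine (Y665H). There were 2 libraries of each genotype and 6 in all. The sample labels do not say whether the marrow mice had 1 or 2 edited alleles or how the marrow was sorted. The paper names homozygous mice for its marrow cell counts and does not repeat this for the marrow single-cell data. The labels also do not say that libraries came from separate animals. The 2 libraries of each genotype differed in the sex-linked RNA Xist (below), so they were not repeats of the same material. The p-values measure the spread between these libraries, which may be partly technical. Per the methods, Y665H was made in C57BL/6N zygotes by adenine base editing and Y665F by Cas9 with a donor oligo that also carried a silent change, so the edits were not limited to the cells of the gate.

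STAT5B is a transcription factor that waits in the cytoplasm until a cytokine receptor and its Janus kinase phosphorylate it, after which it pairs and binds DNA at the sequence TTCNNNGAA. In the marrow it carries signals of granulocyte-macrophage colony-stimulating factor, interleukin-3, erythropoietin and thrombopoietin. Monocytes arise there from granulocyte-macrophage progenitors under the receptor Csf1r and the transcription factors PU.1 (gene Spi1) and Irf8, and lose the granule enzyme genes Mpo, Elane and Prtn3 as they mature.

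The edited codon and the STAT motif near the start of Cish, a STAT5 target gene whose product dampens cytokine signals, are shown because the genotypes differ at the first and STAT5 can act through sites like the second. The codon of that tyrosine in Stat5b lies on the minus strand at chr11:100787291-100787293 (GRCm38), in exon 16 of 19 of transcript Stat5b-201, inside the coding sequence. It is printed in capitals in the wild-type reference sequence, since the deposited counts do not tell edited from unedited transcripts. Both TTCNNNGAA matches of the Cish promoter (RefSeq, GRCm38.p6, plus strand, motif in capitals) begin at 0 and 11 bases past the annotated start, at chr9:107296649-107296677 and chr9:107296660-107296688, so the windows overlap.
Stat5b edited codon: ggggacctgaatTACctcatatatgtg
Cish match 1: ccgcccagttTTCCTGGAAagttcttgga
Cish match 2: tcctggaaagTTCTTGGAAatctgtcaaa
The motif reads the same on both strands and was found in 2726 of 32851 promoter windows of the same length (8.30%). No match lay in the windows of Pim1, another STAT5 target gene.

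The libraries gave between 116 and 324 members each. The summed members held 758434 and 452529 UMIs in WT, 1067650 and 336732 in Y665H, and 1883284 and 1228727 in Y665F (replicates 1 and 2 in this and every later listing). The median member held 2549 to 5597.5 UMIs. Y665F replicate 2 stood apart, since its lowest barcode held 1179 UMIs against 500 in each of the other 5 libraries, and its members held the most neutrophil, megakaryocyte and stem cell transcripts. Levels are given in CPM, the UMIs of a gene per 1000000 UMIs of the summed members. Xist, a sex-linked RNA, was at 678, 177 and 545 CPM in replicate 1 of WT, Y665H and Y665F. It was under 1 CPM in each replicate 2. This difference was present in each genotype, though the level in replicate 1 was lowest in Y665H. The paper's methods name male mice for tissue collection, and the labels give no sex. Ribosomal protein genes took 26.1% to 28.0% of member UMIs in WT and Y665H and 32.1% to 32.2% in Y665F. Barcodes that scored highest against simulated doublets were 2.14% and 10.5% of members in WT, 11.1% and 13.8% in Y665H, and 15.1% and 17.4% in Y665F. The number flagged was set in advance by the kept barcodes of each library, so these shares follow library size. Over all kept barcodes they were 3.10% and 8.23% in WT, 7.40% and 8.41% in Y665H, and 13.45% and 14.97% in Y665F. No member barcode was shared between libraries.

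The gate was permissive at its Csf1r edge, where 82.7% to 94.0% of members held exactly 1 Csf1r UMI. Just outside that limit, 1076 to 4629 barcodes per library met every other condition and held no Csf1r UMI. At the other edges, barcodes without Ly86, F13a1 and Ms4a6c numbered 44 and 37 in WT, 48 and 33 in Y665H, and 181 and 260 in Y665F. Some members held only 1 UMI of these genes together. They were 25 of 140 and 22 of 133 in WT, and 18 of 198 and 30 of 116 in Y665H. In Y665F they were 84 of 324 and 114 of 265, so this edge differed between genotypes. Its part in the results below was not tested. Per library, 4 to 47 barcodes held Siglech, Gata1 or Cd79a, and 3, all in Y665F replicate 1, held too much S100a8 and S100a9. Barcodes up to 100 genes below the gene limit that met the other conditions numbered 0 to 3 per library, and members less than 100 genes above it 0 to 7.

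The label of monocyte lineage was checked against genes that the gate did not use. Irf8 was at 197 to 348 CPM and Spi1 at 127 to 177 CPM over the 6 libraries. Ly6c2, a surface marker of classical monocytes, was at 187 to 309 CPM, and Ccr2, the receptor that lets monocytes leave the marrow, at 39.8 to 63.3 CPM. Genes of mature cells were close to absent, with Cd14 at 2.64 to 7.49 CPM, Fcgr1 at 0 to 2.64 CPM, Adgre1 under 1 CPM, and the nonclassical monocyte genes Ace, Treml4 and Cd300e at 0 in every library. The resident macrophage genes C1qa, C1qc, Cd5l and Mertk were also at 0. Progenitor granule genes were abundant instead, at 692 to 1558 CPM for Mpo and 1650 to 4700 CPM for Prtn3, with Cd34 at 92.1 to 306 CPM and Flt3 at 45.9 to 145 CPM. Granule transcripts were also found outside the gate: at a depth of 1200 UMIs 21.2% to 60% of members and 22.0% to 41.0% of Cd79a-positive barcodes held an Elane UMI, and members were below those barcodes in Y665F replicate 1. For Irf8 the shares were 14.9% to 33.3% and 5.79% to 16.7%, with members higher in each library.

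The first question was whether the genotypes differed in how many marrow barcodes fell in the gate and how the members divided. The gate took 3.62% and 1.29% of kept barcodes in WT, 2.14% and 1.10% in Y665H, and 1.93% and 1.42% in Y665F. The WT libraries enclosed all values but the lower one of Y665H, and no trend over the order Y665H, WT, Y665F was seen (Jonckheere-Terpstra trend over 6 libraries, exact permutation test, two-sided, p = 0.844; the 90 arrangements allow no p under 0.0222). Detection of Csf1r rises with depth: with each barcode thinned to 1200 UMIs and shallower ones left out (2645 to 18270 kept per library) the share fell to 1.51% and 0.443%, 0.578% and 0.624%, and 0.493% and 0.328% in the same order (exact permutation p = 0.333).

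Members were split by their own transcripts into granule-rich (at least 1% of UMIs in Mpo, Elane, Prtn3 and Ctsg), rich in class II major histocompatibility complex (MHC II) genes by the same limit, and the remainder with or without a UMI of Ly6c2. Granule-rich members made up 15% and 15.8% of the gate in WT, 33.8% and 13.8% in Y665H, and 15.7% and 5.66% in Y665F, with the extremes in Y665H replicate 1 and Y665F replicate 2. Elane, a neutrophil protease, reached 5211 to 9278 CPM in them and 270 to 1099 CPM in Ly6c2-positive members, while Irf8 was at 90.9 to 192 CPM against 272 to 475 CPM. These levels follow in part from the split itself.

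Ly6c2-positive members were 24.3% and 21.8% of the gate in WT, 25.3% and 20.7% in Y665H, and 29.0% and 43.0% in Y665F. Both Y665F libraries lay above the other 4, but the trend did not pass (exact permutation p = 0.178, Benjamini-Hochberg adjusted over the 5 shares 0.844). After thinning, with 39 to 66 members per library, the shares were 10.0% and 7.69%, 10.6% and 13.2%, and 22.7% and 15%. At the same thinned depth 15% to 31.9% of all members held a Ly6c2 UMI, with overlapping genotypes (25.8% and 18.3% in Y665F). The share among Cd79a-positive barcodes was 1.26% to 8.89%. MHC II-rich members were 0 or 1 per library, and the counts of 0 allow shares of up to 1.52% to 2.26%, taking 3 members as the limit (exact 95% upper bounds 1.85% to 2.74%). The smallest adjusted p of the 5 shares was 0.844. A single share at the smallest exact permutation p of 0.0222 could not have passed this adjustment.

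**Figure D1:**
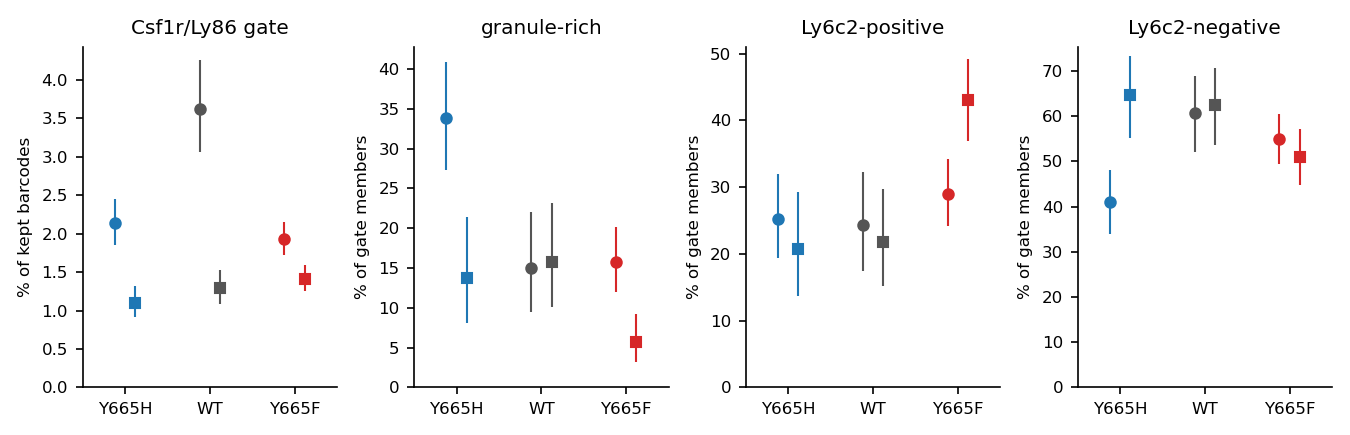
Share of kept marrow barcodes in the Csf1r/Ly86 gate and share of its members in 3 subsets (y axes, percent) for Y665H, WT and Y665F, with circles for replicate 1, squares for replicate 2 and bars for exact 95% binomial intervals, which cover counting error only. The replicates of a genotype lie far apart for the gate (3.62% and 1.29% in WT), and the Ly6c2-positive share is highest in Y665F replicate 2 at 43.0%.

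Gene expression was compared on the UMIs summed over the members of each library with edgeR's quasi-likelihood test, so a change in the mix of members and a change per cell cannot be told apart. Calls required an adjusted p (Benjamini-Hochberg) under 0.05 together with a log2 fold change beyond 1 in either direction. Of 7678 genes tested, 615 (8.01%) were called between Y665F and WT, 241 higher (3.14%) and 374 lower (4.87%) in Y665F. Between Y665F and Y665H 966 genes were called (12.6%, 466 higher, 6.07%, and 500 lower, 6.51%, in Y665F), and between Y665H and WT 1 gene (0.013%), Car1. For Y665H against WT 349 genes had an unadjusted edgeR p under 0.05. With no difference at all, a share of 0.05 of the 7678 tests would fall there on average, which is more than were found. The comparisons of Y665F and of Y665H with WT share the WT libraries. A single library weighed on these counts: without Y665F replicate 2 the Y665F against WT count was 164, and without Y665H replicate 1 the Y665F against Y665H count was 252 (289 without Y665F replicate 2). The filter on low counts asked for about 11 CPM in 2 libraries, and 726 of the tested genes reached it only with the Y665F libraries, among them 52 of the genes called higher than in WT and 123 of those called higher than in Y665H. Such genes could be tested only because of their level in Y665F, so their values are descriptions. Of the genes named below they are Socs2, Jak2, Stat2, Gda, Chil3, Gngt2, Btg2, Gata2, Hlf, Camp, Ngp, Ebf1, Vpreb3, Serpina3g, Mycn, Gramd4, Zbtb20 and Tnfsf13os. DESeq2 called 273 genes in the first comparison, 407 in the second and 0 between Y665H and WT.

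Longer transcripts tended to stand higher in Y665F. The rank correlation between median transcript length and the log2 fold change against WT was 0.183 over 7674 genes of the same libraries, given as a description. The median length was 1222 bases among genes called higher, 921.5 among those called lower and 1159.5 over all genes tested. With a length trend taken out, an alternative chosen after seeing the data, 548 genes were called, of which 485 were among the 615. Against Y665H the correlation was 0.264, with median lengths of 1891 and 906 bases among genes called higher and lower, and 672 of the 966 calls were kept with the trend taken out. For Y665H against WT it was −0.17. The part of transcript length in the calls was not tested further.

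The genes of the STAT5 pathway were read first, from STAT5B and its kinases to receptors and targets. Stat5b itself was at 36.9 and 13.3 CPM in WT, 11.2 and 17.8 in Y665H, and 36.6 and 38.2 in Y665F. The Y665F libraries stood together within or just above the WT range (log2 fold change 0.52 ± 0.36 SE, edgeR adjusted p = 0.38). Both lay above Y665H in Stat5b (1.41, edgeR adjusted p = 0.0219), an order found in 37.7% of tested genes. Its neighbour Stat5a was not called in any comparison, at 8.84 to 24.4 CPM.

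Of 17 tested JAK and STAT genes 0 were called between Y665F and WT, where 8.01% of all genes tested were called. Their median log2 fold change was 0.52 against 0.01 over all genes tested. It is a description only, since Jak2 and Stat2 among them were tested only through Y665F. Against Y665H, 4 of the 17 were higher in Y665F, where 6.07% of all genes tested were called higher: Stat5b, Stat3 (1.71), the kinase gene Jak2 (1.44) and Stat2 (1.91), whose product works downstream of interferon. Jak2 and Stat2 were tested only through Y665F, so nothing is read from this count. Without Y665F replicate 2, and with the top-scoring doublets removed, Stat3 and Stat5b were still called. With the length trend taken out the called genes were Stat2 and Stat3.

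Among 18 tested growth factor receptor genes outside the gate rule, 2 were higher and 2 lower in Y665F than in WT, against 3.14% and 4.87% of all genes tested. Csf2rb, the signalling chain of the receptors for granulocyte-macrophage colony-stimulating factor and interleukin-3, was at 19.8 and 11.1 CPM in WT, 15 and 11.9 in Y665H, and 39.3 and 35.8 in Y665F. Both Y665F libraries lay above the other 4 (log2 fold change 1.26 ± 0.38 SE, edgeR adjusted p = 0.034). This order was found in 25.7% of all tested genes against WT and in 37.7% against Y665H. Kit, the stem cell factor receptor, also rose (1.24), while Il3ra, the interleukin-3 receptor alpha chain, fell by 1.08 and Il10rb, a chain of the interleukin-10 receptor, fell by 1.18 on the log2 scale. None of these 4 calls held without Y665F replicate 2. At equal depth 6.06% and 16.7% of Y665F members held a Kit UMI against 15.7% and 23.8% of Cd79a-positive barcodes of the same libraries, which may include early B cells that express it.

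Of 27 listed STAT5 target genes 17 were tested, and Socs2, Pim1 and Mcl1 were called higher and Ccnd1 lower in Y665F than in WT. Socs2 passed the filter on low counts only through Y665F, where it was high, so no count over the list is read. Socs2, a suppressor of cytokine signalling that STAT5 induces (chromosome 10, 95385362 to 95417180, GRCm38), was at 0 and 4.42 CPM in WT, 0 in both Y665H libraries, and 58.9 and 59.4 CPM in Y665F. The Y665F libraries agreed closely and were far above the other 4. The 184 UMIs in Y665F against 2 in WT made a ratio of 35.8 (95% counting interval 9.77 to 298). Against Y665H, with 0 UMIs, Socs2 was at least 27.7-fold higher in Y665F, taking 3 UMIs over the group as the limit that a count of 0 allows.

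Socs2 was higher in Y665F outside the gate too. Among all other kept marrow barcodes Socs2 was at 5.15 and 4.41 CPM in WT, 2.37 and 2.24 in Y665H, and 102 and 87.7 in Y665F, and the fold there was 4.13 on the log2 scale. With barcodes thinned to 1200 UMIs, 12.1% and 6.67% of Y665F members held a Socs2 UMI against 20.6% and 11.7% of Cd79a-positive barcodes of the same libraries, and for Pim1 the shares were 18.2% and 15% against 18.7% and 16%. B-lineage cells can express both genes, so expression there and free RNA cannot be told apart, and the members did not stand above those barcodes. Cish, whose promoter motifs are printed above, was at 1.32 and 0 CPM in WT, 0 and 2.97 in Y665H, and 9.56 and 16.3 in Y665F. It held too few UMIs to be tested, although both Y665F libraries stood above the other 4, a pattern found in 25.7% of tested genes against WT and in 37.7% against Y665H (29.2% and 26.6% for both below).

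Pim1, a survival kinase that STAT5 induces, was at 44.8 and 39.8 CPM in WT, 59.9 and 38.6 in Y665H, and 125 and 124 in Y665F. It rose by a log2 fold change of 1.59 ± 0.30 SE against WT (edgeR adjusted p = 0.00135) and 1.15 against Y665H. The groups did not overlap, and 25.7% of tested genes showed this order against WT and 37.7% against Y665H. Mcl1, which protects cells from apoptosis, was at 34.3 and 24.3 CPM, 37.5 and 38.6 CPM, and 52.6 and 103 CPM in the same order (1.38), and its call was lost without Y665F replicate 2.

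Ccnd1, which encodes cyclin D1, moved the other way. It was at 44.8 and 39.8 CPM in WT, 23.4 and 26.7 in Y665H, and 9.56 and 13.8 in Y665F, a fall by 1.85 ± 0.37 SE on the log2 scale against WT (edgeR adjusted p = 0.00209). Its relatives Ccnd2 (0.66) and Ccnd3 (−0.82), and the targets Bcl2 (−0.58) and Myc (0.41), were not called. The calls of Pim1 and Ccnd1 held without Y665F replicate 2.

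**Figure D2:**
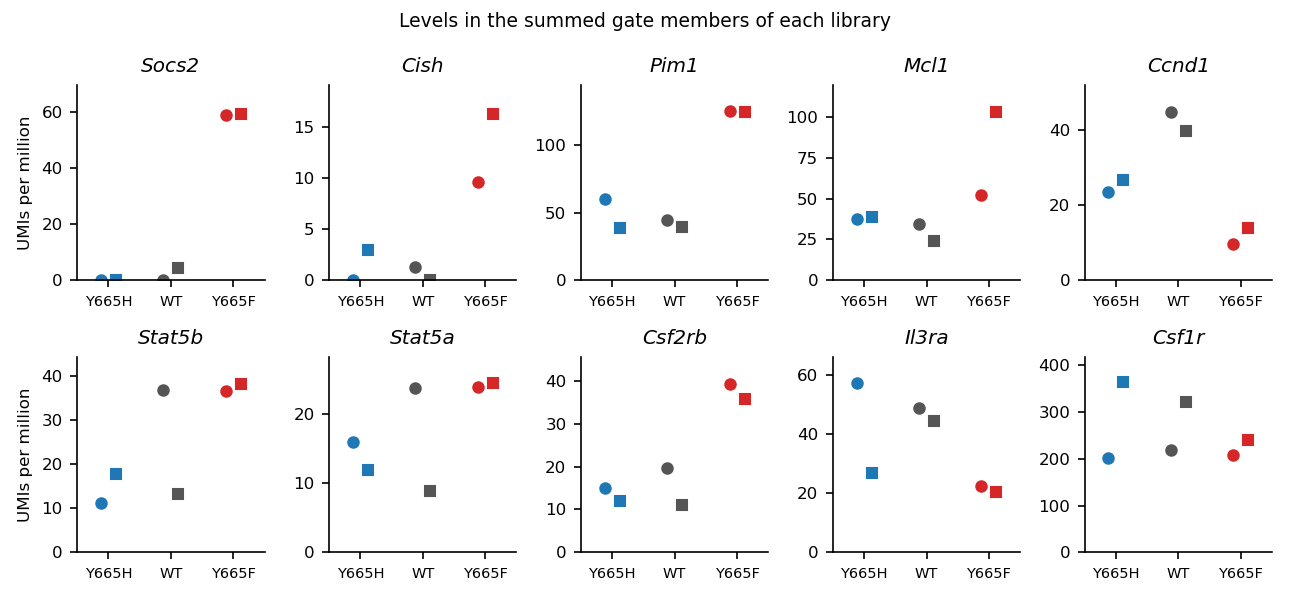
Levels of STAT5 target genes, Stat5 genes and cytokine receptor genes in the summed gate members (y axes, CPM from 0) for Y665H, WT and Y665F, with circles for replicate 1 and squares for replicate 2. Socs2 and Pim1 sit near 59 and 125 CPM in both Y665F libraries, Ccnd1 is lowest there, and Csf1r, which the gate used, overlaps between genotypes.

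The monocyte genes themselves were described next. Of the genes that chose the members, Ly86 was at 612 and 619 CPM in WT, 488 and 526 in Y665H, and 269 and 132 in Y665F, and Ms4a6c at 788 and 716, 719 and 644, and 436 and 286 CPM. Csf1r was at 202 to 365 CPM and F13a1 at 157 to 456 CPM, with overlapping genotypes. A barcode could enter through any of Ly86, F13a1 or Ms4a6c, so these levels are given with no test.

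Among the identity genes left to test (Ly6c2, Ccr2, Cx3cr1 and Fcgr3) 0 of 4 were called in any comparison. Over all genes the shares called were 8.01% for Y665F against WT, 0.013% for Y665H against WT and 12.6% for Y665F against Y665H. Of 15 listed classical monocyte genes 9 were tested, and Lyz2, Gda and Chil3 were called higher in Y665F than in WT, where 3.14% of all genes were called higher. Gda and Chil3 passed the filter on low counts only through Y665F, so no count over the list is read. Lyz2, the lysozyme of myeloid cells, was at 64.6 and 37.6 CPM in WT, 86.2 and 53.5 in Y665H, and 132 and 96.0 in Y665F (log2 fold change 1.17 ± 0.31 SE, edgeR adjusted p = 0.0161). Gda rose by 1.88, a call lost without Y665F replicate 2. Chil3, a secreted chitinase-like protein of monocytes and neutrophils, had 61 UMIs in Y665F against 1 in WT, a ratio of 23.7 (95% counting interval 4.1 to 953). With doublets removed Lyz2 alone of these was called. Without Y665F replicate 1 Lyz2 was not called, whereas Gda and Chil3 were.

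Of 6 tested nonclassical genes Spn and Gngt2 were called, where 3.14% of all genes were called higher. Gngt2 passed the filter on low counts only through Y665F, so no count over the list is read. Spn (CD43) rose by 1.49 ± 0.31 SE, from 38.2 and 24.3 CPM in WT to 85.0 and 91.2 CPM in Y665F (edgeR adjusted p = 0.00264). Gngt2 rose by 1.72, a call lost without Y665F replicate 2, while Ace, Treml4 and Cd300e were at 0. Of 15 tested monocyte transcription factor genes 1 was called against WT (the immediate early gene Egr1, 1.64), against 8.01% of all genes, and that call was lost without Y665F replicate 2. Irf8 was at 276 to 348 CPM in WT and 268 CPM in both Y665F libraries, and Spi1 at 159 to 177 CPM and 127 to 148 CPM, neither called. Runx1, a regulator of blood stem and progenitor cells, was higher in Y665F than in Y665H by 1.93, with 34.7 and 47.5 CPM in Y665H, 98.9 and 64.1 CPM in WT and 155 and 166 CPM in Y665F.

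Of 15 tested granule genes 4 were higher and 1 was lower in Y665F than in WT, against 3.14% and 4.87% of all genes tested. Cd63, a granule membrane protein, was at 40.9 and 33.1 CPM in WT, 48.7 and 41.6 in Y665H, and 123 and 157 in Y665F (log2 fold change 1.93 ± 0.31 SE, edgeR adjusted p = 0.000167). Both Y665F libraries lay above the rest, an order found in 25.7% of tested genes against WT and 37.7% against Y665H. Srgn, the proteoglycan that packs granules, and Nkg7 rose by 1.03 and 1.07, while Cst7, an inhibitor of granule proteases, fell by 1.26. The enzyme genes were not called against WT, with Mpo at −0.04, Elane at −0.24 and Prtn3 at −0.54. Elane was lower in Y665F than in Y665H by 1.05 on the log2 scale, and Y665H replicate 1, with 33.8% granule-rich members, held the most. That call was lost without Y665F replicate 2, without granule-rich members, with the length trend taken out and with DESeq2. Without Y665F replicate 2 only Cd63 of the 5 calls against WT remained.

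Lysosomal and phagocytic genes were 2 higher and 2 lower of 22 tested, against 3.14% and 4.87% of all genes. Ctsz, a lysosomal cathepsin, was at 262 and 327 CPM in WT, 269 and 235 in Y665H, and 99.3 and 65.1 in Y665F, a fall by 1.81 ± 0.30 SE on the log2 scale (edgeR adjusted p = 0.000277). The NADPH oxidase subunit gene Ncf4 fell by 1.13, a call lost without Y665F replicate 2, and Lgals3 rose by 2.18 from 5.27 and 4.42 CPM. Without Y665F replicate 1 Lgals3 was not called, and Cd68, Ctsb, Ctss and Lamp1 were called lower besides Ctsz and Ncf4. Of 10 tested inflammatory genes and 11 chemokine receptor and adhesion genes 0 were called between Y665F and WT, where 8.01% of all genes were called. Of 8 tested MHC II and dendritic genes 1 was called in each direction, against the same shares of all genes. H2-Aa was higher (1.85) and H2-DMb1, which loads peptides on class II molecules, was lower (−1.75). The H2-Aa call was lost without Y665F replicate 2, without WT replicate 1 and with doublets removed.

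Interferon-induced genes that were called rose, with 3 higher and 0 lower of 13 tested (3.14% and 4.87% over all genes) and a median of 0.40. Ifitm3, which restricts virus entry, was at 454 and 230 CPM in WT, 456 and 309 in Y665H, and 1013 and 776 in Y665F (log2 fold change 1.43, edgeR adjusted p = 0.00255). Isg15, a ubiquitin-like protein, was at 27.7 and 28.7, 29.0 and 41.6, and 96.1 and 82.2 CPM (1.71). The groups did not overlap for either. Both Y665F libraries lay above both WT libraries in 25.7% of all tested genes, and above both Y665H libraries in 37.7%. Ly6a, the stem cell antigen Sca-1, rose by 1.94. The members Bst2 (0.15) and Psmb8 (−0.64) were not called, and all 3 calls held without Y665F replicate 2.

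Ifitm1, which is beside Ifitm3 (chromosome 7, 140967221 to 140969825) and shares sequence with it, was at 173 and 139 CPM in WT, 184 and 309 in Y665H, and 1244 and 899 in Y665F (log2 fold change 2.81 ± 0.31 SE, edgeR adjusted p = 1.25e-06). All other kept barcodes changed by 2.33.

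Of 25 tested S phase genes 4 fell and 0 rose between Y665F and WT, and of 25 G2M genes 5 fell and 0 rose, while 4.87% of all genes tested fell and 3.14% rose and the list medians were −0.20 and 0.02. Rrm2, the inducible subunit of ribonucleotide reductase (chromosome 12, 24708241 to 24714146), was at 227 and 267 CPM in WT, 211 and 187 in Y665H, and 47.3 and 37.4 in Y665F. It fell by 2.51 ± 0.30 SE on the log2 scale (edgeR adjusted p = 3.35e-06), and by 2.74 in all other kept barcodes. Its partner Rrm1 was at 91.0 and 50.8, 75.9 and 83.2, and 77 and 143 CPM and was not called (0.62).

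The other S phase calls were Gins2 (−1.76) of the replicative helicase, the uracil glycosylase gene Ung (−1.54) and Rpa2 (−1.05), which binds single-stranded DNA. In G2M, Ccnb2 fell by 1.44, Cdk1 by 1.17, Aurkb by 1.21, Ccnb1 by 1.19 and Tacc3 by 1.08. Other genes of these phases were not called, with Pcna at 0.09, Top2a at 0.18 and Mcm4 at −0.21, and most members of both lists did not pass. Without Y665F replicate 2 Gins2, Rrm2, Ung, Ccnb2 and Cdk1 were still called lower and the others were not. The medians of the S phase and G2M lists were then −0.26 and −0.39, against −0.01 over all genes.

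Immediate early and heat shock genes respond to handling as well as to signals. Of 21 tested 4 were higher (Jund 1.80, Ier3 1.74, Egr1 1.64, Btg2 1.55) and 1 was lower, against 3.14% and 4.87% of all genes. Btg2 passed the filter on low counts only through Y665F, so no count over the list is read. The lower one, Ier2, was at 282 and 526 CPM in WT, 504 and 487 in Y665H, and 143 and 130 in Y665F (−1.56). Without Y665F replicate 2, 1 was higher (Jund) and 2 were lower (Ier2 and Klf2).

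**Figure D3:**
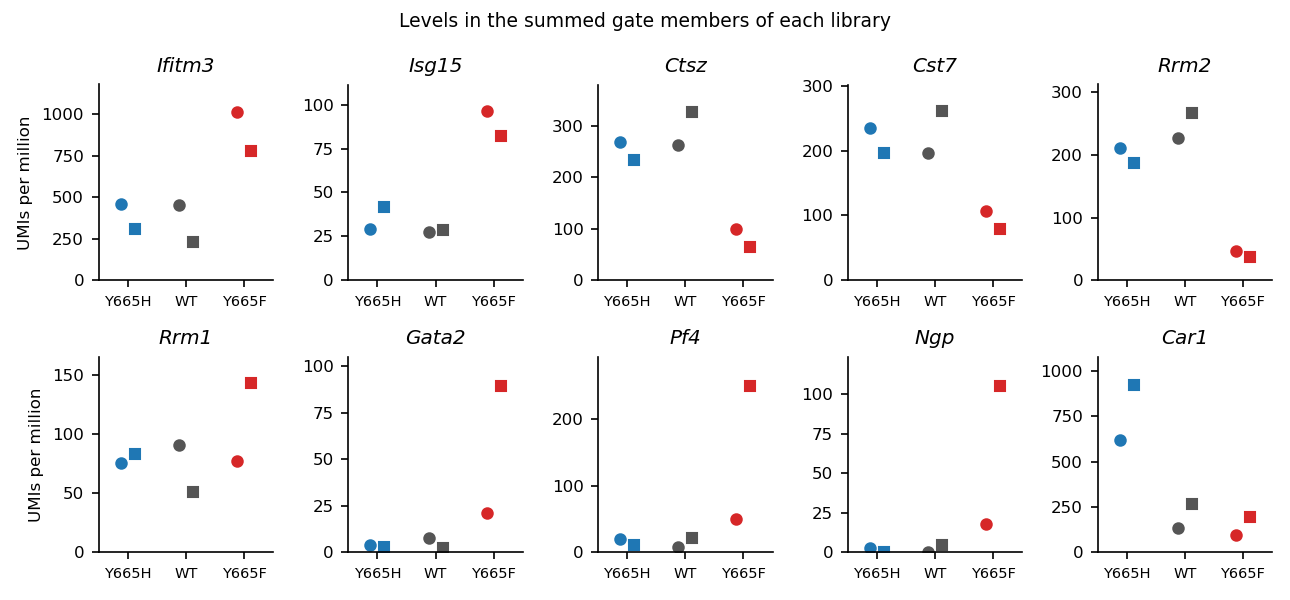
Levels of example genes of the interferon, lysosome, granule, cell cycle, stem cell, megakaryocyte, neutrophil and erythroid groups in the summed gate members (y axes, CPM from 0) for Y665H, WT and Y665F, with circles for replicate 1 and squares for replicate 2. Rrm2 is lowest in both Y665F libraries while Rrm1 overlaps, Pf4 and Ngp are highest in Y665F replicate 2, and Car1 is highest in both Y665H libraries.

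Some genes of stem cells, neutrophils and megakaryocytes were also higher in the Y665F members. Of 12 listed stem cell genes 8 passed the filter on low counts, Gata2 and Hlf among them only through Y665F, where they were high, so no count over the list is read. Gata2, a transcription factor of stem and mast cells, was at 7.91 and 2.21 CPM in WT, 3.75 and 2.97 in Y665H, and 21.2 and 89.5 in Y665F. Hlf was at 13.8 and 65.1 CPM in Y665F and 2.21 to 9.37 CPM elsewhere, and Meis1 at 20.7 and 61.9 CPM against 2.21 to 14.8 CPM. In each of these 3 genes Y665F replicate 2 was the highest library, and without it none of the 3 was called.

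Markers of maturing neutrophils were scarce outside Y665F, unlike the early granule genes above. The 18 neutrophil markers, S100a8 and S100a9 included, summed to 22.4 and 44.2 CPM in WT, 49.6 and 20.8 in Y665H, and 190 and 1580 in Y665F. Camp, an antimicrobial peptide of neutrophil granules, had 0 UMIs in WT and 374 in Y665F, 341 of them in replicate 2, so it was at least 48.5-fold higher with 3 UMIs over the group as the limit. Ngp had a ratio of 31.7 to WT (95% counting interval 8.64 to 264), with 129 of its 163 Y665F UMIs in replicate 2, and was not called without that library. Pglyrp1 rose by 1.97. Camp, Ngp and Chil3 passed the filter on low counts only through Y665F. In all other kept barcodes Camp was at 1.85 and 26.1 CPM in WT, 28.6 and 15 in Y665H, and 664 and 275 in Y665F, so the Y665F marrow as a whole held more of it. Barcodes above the S100a8 and S100a9 limit numbered 0 and 3 in WT, 5 and 2 in Y665H, and 174 and 115 in Y665F. The part of free neutrophil RNA or doublets in these values was not tested.

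The 10 megakaryocyte markers summed to 14.5 and 39.8 CPM in WT, 35.6 and 20.8 in Y665H, and 73.3 and 346 in Y665F. Pf4, a platelet chemokine, accounted for most of it, at 49.9 and 251 CPM in Y665F (3.45 ± 0.56 SE, edgeR adjusted p = 0.000234), and it was still called without replicate 2 (1.97). Cd79a-positive barcodes of Y665F replicate 2 held Pf4 and S100a8 more often than members at equal depth. For Pf4 33.9% held a UMI against 26.7% of members, and for S100a8 12.9% against 8.33%. In WT and Y665H 2.96% to 5.56% of such barcodes held Pf4. In Y665F replicate 1 members also lay below such barcodes (3.03% against 13.3% for Pf4). Of the Cd79a-positive barcodes of Y665F replicate 2, 41.6% held an Mpo UMI, so they may not be B cells alone. Whether they measure free RNA was not tested. The 18 basophil, mast cell and eosinophil markers summed to 24.3 to 56.8 CPM in 5 libraries and 273 CPM in Y665F replicate 2, which held 99.3 CPM of the eosinophil granule gene Prg2. The T cell gene Cd3e and the B cell gene Ms4a1 were at 0 in every library. Of the 12 B-lineage markers 6 were tested, Ebf1 and Vpreb3 only through Y665F, so no count or median is read. Cd79b, the partner of the excluded Cd79a, was present at 24.4 to 86.2 CPM and was lower in Y665F than in WT (−1.20, a call lost without Y665F replicate 2), and the B-lineage markers together at 184 to 260 CPM. The part of these other-lineage transcripts in the Y665F changes was not tested. With the top-scoring doublets removed 509 genes were called, and 473 of them were among the 615.

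Beyond the lists, the widest rises from WT to Y665F among genes at 20 CPM or more included Serpina3g, a serine protease inhibitor at 3.96 and 4.42 CPM in WT, 5.62 and 11.9 in Y665H, and 36.1 and 85.5 in Y665F. Pdzk1ip1 had a ratio of 13 (95% counting interval 4.31 to 64) and the transcription factor gene Mycn one of 8.04 (2.63 to 40.1), each resting on 3 UMIs in WT. For Y665H against WT the ratios were 5.17 (1.51 to 27.4) for Pdzk1ip1 and 1.44 (0.28 to 9.25) for Mycn. Pdzk1ip1 was at 2.64 and 2.21 CPM in WT, 11.2 and 17.8 in Y665H, and 27.6 and 39.1 in Y665F. Gse1 rose by 2.78.

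The widest falls held more abundant genes. Aldoa, the glycolytic aldolase, was at 807 and 880 CPM in WT, 984 and 597 in Y665H, and 207 and 121 in Y665F, a fall by 2.33 ± 0.31 SE on the log2 scale (edgeR adjusted p = 2.27e-05). Tk1, a thymidine kinase of S phase, fell by 2.18 and Tuba1a, an alpha-tubulin, by 2.28. Taf9, a subunit of the general transcription factor TFIID, fell by 2.42, and Poc1a, Kctd13 and Zfp524 by 2.11 to 2.25. In all other kept barcodes Aldoa changed by −2.31, Tk1 by −2.05, Tuba1a by −1.60 and Taf9 by −2.63. Poc1a, Kctd13 and Zfp524 changed there by −1.90, −1.07 and −2.02. The predicted genes Gm46620, Gm4316, Gm43305 and Gm42031 fell by 2.05 to 3.29. Predicted genes can overlap or resemble other genes, so their counts are uncertain.

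The comparison of Y665F with Y665H shares the Y665F libraries with that against WT. Genes named by the rule there and not against WT included Ncoa3 (log2 fold change 2.73) and, among those that were tested only through Y665F, Gramd4, Zbtb20 and Tnfsf13os. Tnfsf13os is an antisense RNA, and reads of such a gene and its partner may be mixed. On the other side, Eif5a, a translation factor, was at 2526 and 2284 CPM in Y665H, 2120 and 2566 CPM in WT, and 766 and 491 CPM in Y665F (−2.03). Nutf2 (−2.43), a nuclear transport factor, Uchl3 (−2.17), Cenpu (−2.19), Bud23 (−2.05), Tmem120a (−2.49) and Klf2 (−2.04) were lower too. The changes in all other kept barcodes, in this order from Eif5a, were −2.53, −2.77, −2.38, −1.84, −2.36, −1.55 and −1.27.

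The Y665H members differed from WT in 1 called gene. Car1, a carbonic anhydrase of early erythroid cells (chromosome 3, 14766216 to 14808368), was at 137 and 265 CPM in WT, 619 and 921 in Y665H, and 96.6 and 194 in Y665F. Both Y665H libraries lay above the other 4 (log2 fold change 2.05 ± 0.35 SE, edgeR adjusted p = 0.0134), a pattern found in 9.96% of tested genes against WT (20.8% for both below). The call was lost with DESeq2 (2.03, adjusted p = 0.9998), after thinning (0.31) and without WT replicate 1 (1.52) or Y665H replicate 2 (1.70), in the same direction each time. The other 4 tested erythroid genes were not called, at 1.32 for Car2, 1.18 for Blvrb, 1.44 for Ermap and 1.09 for Klf1. The 14 erythroid markers summed to 298 and 482 CPM in WT, 999 and 1369 in Y665H, and 279 and 625 in Y665F, although the gate excluded barcodes with Gata1. Their part in the Car1 result was not tested.

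The last comparison asked whether Y665F changed the gate otherwise than the rest of the marrow of the same libraries. Among the 68268 other kept barcodes 2392 of 13833 genes (17.3%) were called between Y665F and WT, 0 between Y665H and WT and 3692 (26.7%) between Y665F and Y665H. The sums of the rest are far deeper, so the counts are not comparable in size. In a fit with the library as a block, the Y665F against WT change differed between gate and rest in 46 of 7678 genes (0.599%), 29 with the gate's change more positive (0.378%) and 17 more negative (0.221%). The Y665H change differed in 0 genes with edgeR. At an unadjusted p under 0.05 there were 279, fewer than no difference at all would give on average. The count of 46 rested on WT replicate 1, without which it was 0, and was 15 without Y665H replicate 2, 22 without Y665H replicate 1, 26 without Y665F replicate 2 and 163 without Y665F replicate 1.

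The more positive side held erythroid and MHC II genes among others. Barcodes with Gata1 or Cd79a were kept out of the gate and stay in the rest, so differences in genes of erythroid and B cells touch the rule and are given as a description. Car1 fell by 3.26 in the rest, from 3788 and 4644 CPM in WT to 632 and 377 CPM in Y665F, and changed by −0.48 in the gate, a difference of 2.67 ± 0.35 SE. Car2, Blvrb and Ermap had differences of 2.25, 2.16 and 2.67. For Y665H against WT the differences of Car1, Car2, Blvrb and Ermap were 1.72, 0.948, 0.782 and 1.34, none of them called.

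Cd74, the class II invariant chain, fell by 2.24 in the rest, from 314 and 352 CPM in WT to 94.3 and 67.6 CPM in Y665F. Within the gate it was at 26.4 and 57.5 CPM in WT, 83.4 and 166 in Y665H, and 48.3 and 78.1 in Y665F (0.67, not called). The difference was 2.74 ± 0.43 SE for Y665F against WT and 2.12 ± 0.45 SE for Y665H against WT. For H2-Aa the differences were 3.19 ± 0.53 SE and 2.35 ± 0.605 SE. Neither Y665H difference was called, so the size of these differences was not particular to Y665F. Gclm, of glutathione synthesis, rose by 1.26 in the gate and changed by −0.35 in the rest (difference 1.5), and Apoe, a lipid carrier, by 1.47 and −0.49 (1.84). On the more negative side, Chd9 fell by 1.58 in the gate and 0.52 in the rest (−1.23), and the glycolytic gene Pkm by 1.13 and 0.23 (−1.08). Gclm, Apoe, Chd9 and Pkm were chosen after their values were seen.

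**Figure D4:**
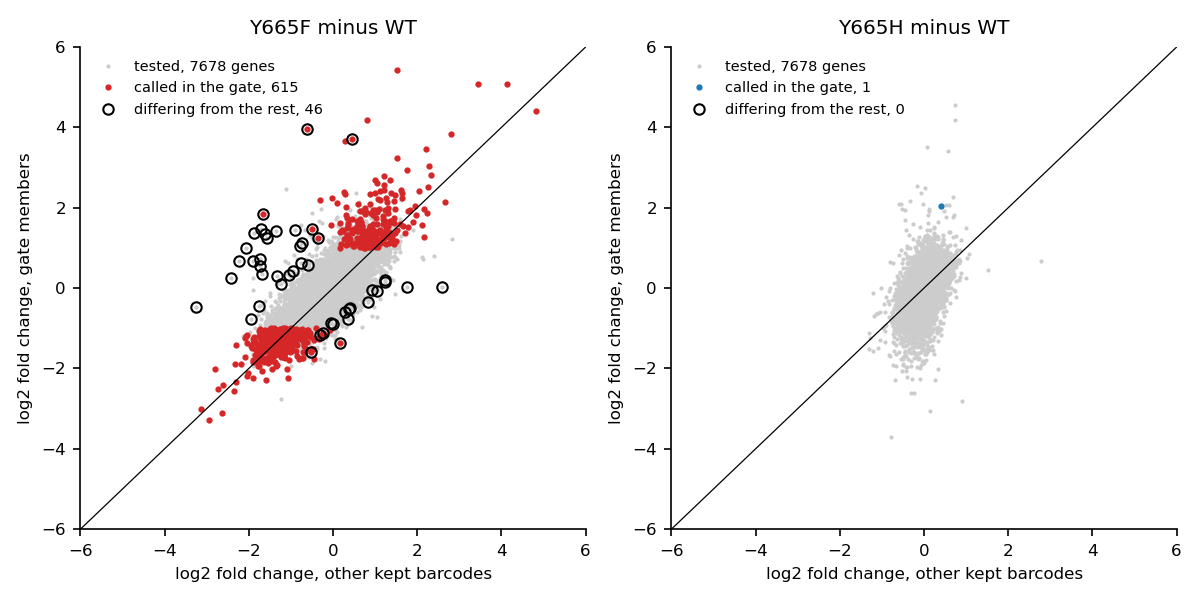
Log2 fold change against WT in all other kept marrow barcodes (x axis) and in the gate members (y axis) for Y665F (left) and Y665H (right), with 1 grey point per tested gene, coloured points for genes called in the gate, open circles for genes whose change differed between the compartments, and a line of equality. The 615 Y665F calls and 46 differing genes stand against 1 and 0 for Y665H; both axes use the same libraries, and a few near-zero genes lie beyond the limits of 6.

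**Figure D5:**
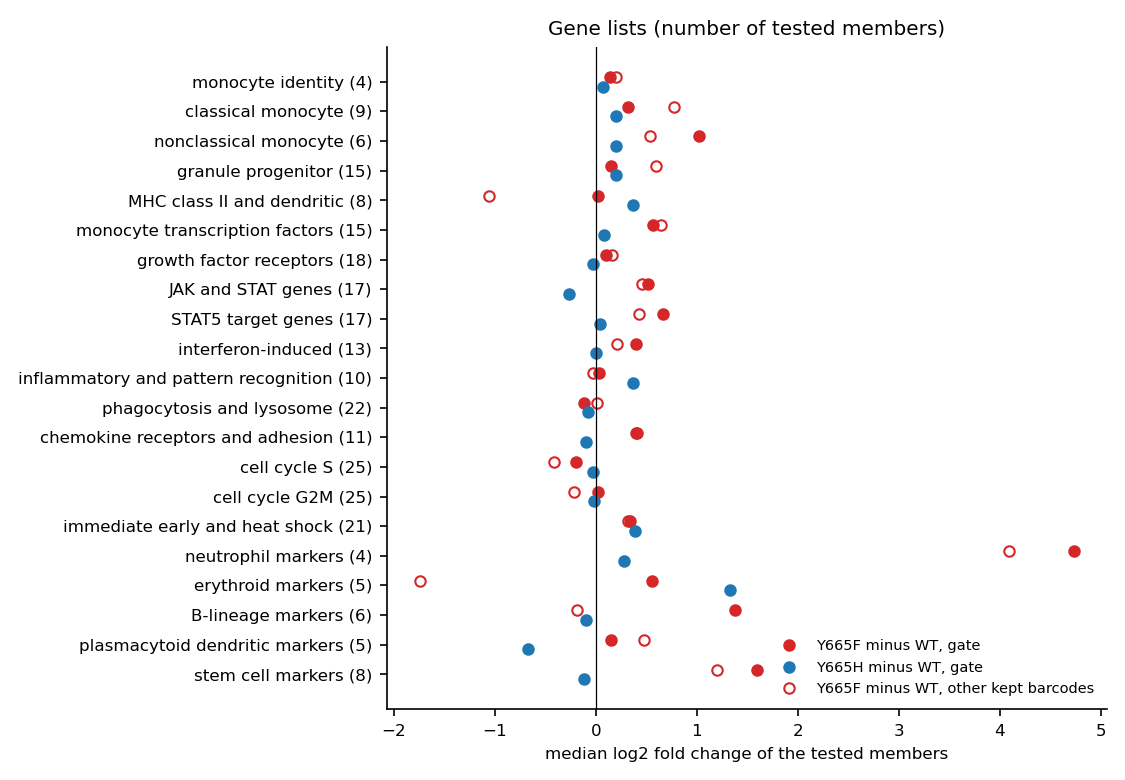
Median log2 fold change of the tested members of each gene list with 4 or more of them (number in brackets, x axis in log2 units) for Y665F against WT in the gate (filled red) and in the other kept barcodes (open red), and for Y665H against WT in the gate (blue). The erythroid list is at 0.55 in the gate for Y665F (−0.06 without Y665F replicate 2) against −1.75 in the other barcodes, and at 1.32 for Y665H. Some lists, such as the stem cell and neutrophil lists, hold genes that passed the filter only through Y665F, so their medians are descriptions. These 2 lists are at 1.59 and 4.74 in the gate for Y665F and at 1.20 and 4.10 in the other barcodes.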

How the data were processed

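The authors deposited raw UMI counts per gene and droplet barcode, made with Cell Ranger. Per the labels' processing notes Cell Ranger 5.0, Seurat 4.0 and mm10 (GRCm38) were used, whereas the file headers of the marrow name a later Cell Ranger. The labels name a 3′ kit and the methods a 5′ kit, and the files do not settle it. The study's quality thresholds are not given in the sources used here. Samples were grouped by their titles.

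Members and gene lists were chosen with earlier results of these data known. Counts were summed per library over members (32285 genes in the files) and fitted with edgeR 4.0.16 in R 4.3.3 (TMM, filterByExpr, 6 libraries in 1 fit, residual biological coefficient of variation 0.18). Standard errors were derived from the log2 fold change and its F statistic. Shares used an exact permutation test with Python 3.11.15 and scipy 1.17.1, with exact Clopper-Pearson intervals. DESeq2 1.42.0 was an alternative. Scripts were tested on simulated data. Named genes were up to 12 called genes per direction with the largest change, at 20 CPM or more in the higher group and with groups that did not overlap, plus called or abundant list members. Gate, sex-linked, receptor segment, hemoglobin and mitochondrial genes were left out, and a few named genes are not reported here. Replicate number was not part of the main fit, although Xist followed it. Coordinates are from GENCODE vM21 on GRCm38. Intervals and limits cover counting error only.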

Additional observations from a re-analysis of the deposited data

Results flagged for a closer look

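The change from WT to Y665F differed between the Csf1r/Ly86 gate and all other kept marrow barcodes in 46 genes (edgeR interaction test, library as a block), which is what drew attention to them. The named members were the erythroid genes Car1 (gate minus rest of the log2 fold change 2.67), Car2 (2.25), Blvrb (2.16) and Ermap (2.67), the class II genes Cd74 (2.74) and H2-Aa (3.19), Isg20 (2.81), Pdzk1ip1 (3.02) and, on the negative side, Trf (−1.08), which encodes transferrin. For Y665H against WT the differences of these genes were, in the same order, 1.72, 0.948, 0.782, 1.34, 2.12, 2.35, 0.739, 2.46 and −0.245, and none was called. Barcodes with Gata1 or Cd79a were kept out of the gate by its rule and stay in the rest, so the erythroid and class II differences are descriptions that this rule touches. The median change of the 5 tested erythroid genes was 0.55 in the gate (−0.06 without Y665F replicate 2 and −0.04 without WT replicate 1) and −1.75 in the rest. All 46 calls were lost without WT replicate 1, and the cause was not tested.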

How the results depend on the processing

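None of the genes named by size of change (24, 24 and 1 in the 3 contrasts) changed direction under the alternatives in which it was fitted. Of the 615 genes, 4 had the opposite sign after thinning, 2 without WT replicate 1 and 2 in granule-rich members alone. Of the 966, 3 did in Ly6c2-positive members alone, 2 without Y665H replicate 1, 1 after thinning and 1 with the length trend removed. Counts of called genes moved most. For Y665F against WT (615) the count was 273 with DESeq2, 9 with barcodes thinned to 1200 UMIs, 408 in Ly6c2-positive and 187 in granule-rich members alone, and 164 (without Y665F replicate 2) to 897 (without Y665F replicate 1) when 1 library was left out. For Y665F against Y665H (966) it was 407, 6, 300 and 174, and 252 to 1277. For Y665H against WT (1) it was 0, 0, 3 and 2, with 7 genes with no filter on low counts, 2 without granule-rich members, and 0 to 24. For the difference between gate and rest (46) it was 118 with no filter, 8 after thinning and 0 to 163. Thinned fits test few genes, 123 of the 615 among them. A lone library left in a genotype is assumed to vary like the others.

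With sex-linked genes left out, the correlations of same-numbered deviations were 0.0806, −0.130 and 0.0784 over 7673 genes. Xist was high in each replicate 1 and under 1 CPM in each replicate 2, so replicate number followed a difference shared by the genotypes. The main fit and the share test did not model it. With a replicate block, 669 genes were called for Y665F against WT, 984 for Y665F against Y665H and 9 for Y665H against WT.

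Of the 24 named genes of Y665F against WT, 24 were called with the block, 18 without WT replicate 1, 17 without Y665F replicate 2 and 10 with DESeq2, which gave no adjusted p for 13 and did not call 1. No share passed under any alternative, but the test had little room to pass. A single share at the smallest p of 0.0222 (exact permutation test) could not pass the adjustment over 5 shares. With 1 library left out, the arrangements allow no p under 0.05. These outcomes therefore say little about the shares. The interaction with barcodes rich in S100a8 and S100a9 was not run, since the WT libraries held 0 and 3 of them. Depth limits genes under about 20 CPM.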
